A study of Homo sapiens with 10 samples.

Results

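Genes of amino acid supply and of the response to its shortage were followed in HAP1 cells labelled as knockouts (KO) of RBM4, which encodes an RNA-binding protein. They are the transporter genes SLC7A1, SLC7A3, SLC7A5, SLC7A11 and SLC3A2, the transcription factor gene ATF4, and the genes ASNS, CHAC1, TRIB3 and DDIT3, which ATF4 is known to activate. The members are all gene entries of the paired-end and the single-end count table that map to these symbols, and all 10 were found among 58051 genes, beside 1187 repeat subfamilies. HAP1 is an adherent near-haploid human cell line derived from the leukaemia line KBM-7, and RBM4 is a protein that regulates splicing and translation. Total RNA of untreated cells was made into poly(A) libraries. The paired-end libraries came from RBM4 KO clone 1 (3 replicates), RBM4 KO clone 2 (2 replicates) and wild type cells (3 replicates), and 1 single-end library each came from an RBM4 KO clone and from wild type cells. The labels do not say which clone the single-end library is, nor how the knockouts were made. Each knockout line is 1 clone, so clone and genotype cannot be told apart within a clone.

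SLC7A1 and SLC7A3 encode carriers of the cationic amino acids arginine, lysine and ornithine. SLC3A2 encodes the heavy chain that brings several light chains to the cell surface, among them SLC7A5, which carries large neutral amino acids, and SLC7A11, which imports cystine in exchange for glutamate. When amino acids run short or the endoplasmic reticulum is stressed, kinases phosphorylate the translation factor eIF2, translation of the ATF4 message increases, and the ATF4 protein switches on amino acid transporters, synthetic enzymes and stress genes by binding, often as a dimer with a C/EBP protein, to a composite site in their promoters.

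The 8 paired-end libraries held between 33192095 and 55617525 counts, and the single-end libraries held 41265510 counts in the RBM4 KO clone and 44140706 in wild type. RBM4 itself stood at 22.3, 22.9 and 24.5 CPM (counts scaled to library size) in clone 1, at 25.3 and 25.8 CPM in clone 2 and at 79.8, 79.8 and 78.7 CPM in wild type, a log2 fold change of -1.70 in the mean of the clones (SE 0.048, edgeR quasi-likelihood adjusted p = 1.11e-10), so the labels and the targeted gene went the same way. RBM4 shares exon sequence with the read-through gene RBM14-RBM4 and overlaps RBM4B on the opposite strand, so its remaining counts are uncertain. All 5 haematopoietic markers were below 1 CPM in every paired-end library. The summed level of 4 epithelial markers, mostly KRT18, was 56.3 to 64.3 CPM in clone 1, 68.6 to 75.4 CPM in clone 2 and 41.0 to 47.2 CPM in wild type. In the mean of the clones KRT18 rose by 0.50 (edgeR adjusted p = 0.000252) and KRT8 by 1.09 (adjusted p = 7.74e-06). EPCAM was at -0.08 (adjusted p = 0.804), with means of 2.30 CPM in clone 1, 0.96 CPM in clone 2 and 1.57 CPM in wild type. CDH1 was below 1 CPM throughout. The summed level of 5 fibroblast markers, mostly VIM, was 383.5 to 446.3 CPM in clone 1, 439.7 to 444.7 CPM in clone 2 and 467.0 to 502.1 CPM in wild type, with COL1A2, DCN and LUM below 1 CPM. Its genes went opposite ways, VIM with a log2 fold change of -0.20 in the mean of the clones (adjusted p = 0.0279) and COL1A1 with 0.76 (adjusted p = 1.28e-05). The part of these differences in the results for the 10 genes was not tested.

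Of the 10 members, 8 were matched in the table of RefSeq promoters used here (GRCh38.p14, windows from 250 bases before to 50 bases after an annotated start). The composite ATF4-C/EBP motif, searched as TGATGNAA on both strands (TTNCATCA on the other), was in 4 of these 8, beside 3.62% of 35116 windows and 4.46% of 27305 gene symbols. The members include known targets of ATF4, so a high share with the motif was likely beforehand and is no result of the counts. SLC7A3 and SLC7A11 were not analysed for motifs. Of the searched members without a match, DDIT3 and TRIB3 rose in a knockout comparison, and SLC7A5 and ATF4 did not. The 4 windows shown are those of ASNS, CHAC1 and SLC3A2, which rose in a knockout comparison, and of SLC7A1, which did not. Capitals mark the motif, and each reads 5′ to 3′ on the gene's strand. They are chr7:97872359-97872658 (minus strand) for ASNS, chr15:40953221-40953520 (plus) for CHAC1, chr11:62881449-62881748 (plus) for SLC3A2 and chr13:29595639-29595938 (minus) for SLC7A1.
ASNS promoter: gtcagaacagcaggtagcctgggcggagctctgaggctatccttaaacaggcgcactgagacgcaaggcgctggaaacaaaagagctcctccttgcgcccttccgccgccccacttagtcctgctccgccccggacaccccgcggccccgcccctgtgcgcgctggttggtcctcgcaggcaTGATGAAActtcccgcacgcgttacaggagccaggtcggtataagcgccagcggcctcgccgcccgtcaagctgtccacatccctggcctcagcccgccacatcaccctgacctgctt
CHAC1 promoter: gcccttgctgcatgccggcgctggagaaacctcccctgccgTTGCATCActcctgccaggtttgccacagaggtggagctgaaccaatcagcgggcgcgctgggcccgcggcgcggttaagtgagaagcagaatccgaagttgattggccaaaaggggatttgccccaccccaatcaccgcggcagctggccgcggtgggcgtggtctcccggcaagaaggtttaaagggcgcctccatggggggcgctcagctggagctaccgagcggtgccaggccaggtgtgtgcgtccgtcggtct
SLC3A2 promoter: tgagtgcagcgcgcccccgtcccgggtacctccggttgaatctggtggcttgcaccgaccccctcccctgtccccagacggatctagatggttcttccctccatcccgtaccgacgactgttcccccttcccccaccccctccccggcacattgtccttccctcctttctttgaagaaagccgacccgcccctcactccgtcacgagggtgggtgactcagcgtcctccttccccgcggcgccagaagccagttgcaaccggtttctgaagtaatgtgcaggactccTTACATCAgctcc
SLC7A1 promoter: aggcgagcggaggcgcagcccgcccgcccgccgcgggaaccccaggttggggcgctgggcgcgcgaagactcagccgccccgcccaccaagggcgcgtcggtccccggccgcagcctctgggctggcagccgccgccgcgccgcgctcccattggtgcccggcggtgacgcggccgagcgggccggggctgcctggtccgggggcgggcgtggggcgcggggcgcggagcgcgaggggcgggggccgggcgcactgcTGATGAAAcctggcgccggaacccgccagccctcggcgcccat
Counted from the start site as 0, the motif began at -68 in ASNS, -209 in CHAC1, 37 in SLC3A2 and 7 in SLC7A1. It lay on the gene's own strand in ASNS and SLC7A1 and on the other strand in CHAC1 and SLC3A2. The site in ASNS is part of the element long known to answer amino acid shortage. The antioxidant response motif TGACNNNGC (GCNNNGTCA on the other strand) was found in windows of SLC3A2, SLC7A1, SLC7A5 and TRIB3, beside 13.3% of all windows and 16.1% of symbols. A match describes these letters only and does not show that a factor binds there.

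SLC7A3 was the member that differed most between the lines, and it went opposite ways in the clones. It was 3.53-fold higher in clone 1 and 7.76-fold lower in clone 2 than in wild type, so the clones stood 27.4-fold apart. SLC7A1, the cationic carrier that most cell types use, passed the test in neither clone, and gave a small fall in clone 1 (-0.15, adjusted p = 0.031) once GC content was corrected for. In bulk RNA, fewer cells expressing a gene and less RNA per cell cannot be told apart.

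SLC7A3 (ENSG00000165349, chromosome X, 70925582 to 70931125, minus strand, GENCODE 29 on GRCh38) was covered by 1597, 2897 and 1952 counts in clone 1, by 73 and 85 counts in clone 2 and by 543, 501 and 616 counts in wild type. Scaled for depth, these were 48.2, 52.3 and 48.2 CPM in clone 1, 1.81 and 1.81 CPM in clone 2, compared with 12.9, 14.3 and 14.9 CPM in wild type. No library of any group came near the range of another group. The mean was 49.6 ± 2.35 CPM in clone 1 (SD, n = 3), 1.81 ± 0.00067 CPM in clone 2 (SD, n = 2) and 14.0 ± 1.05 CPM in wild type (SD, n = 3). The log2 fold change was 1.82 in clone 1 (SE 0.071, adjusted p = 2.63e-09) and -2.96 in clone 2 (SE 0.11, adjusted p = 9.2e-10), by edgeR's quasi-likelihood test with Benjamini-Hochberg adjustment over all 20747 features tested. In the first comparison 16.0% of all features were called at an adjusted p below 0.05 (9.37% higher, 6.64% lower), and SLC7A3 was the 1 member of 10 called. The direct test of clone 2 against clone 1 gave -4.78 (SE 0.11, adjusted p = 1.14e-11), in a comparison in which 2.09% of features were called. By p this was 1st of 20747 features, and by absolute log2 fold change it was 24th. All 18 alternative treatments of the data kept the calls, with values of 1.73 to 1.86 in clone 1, -3.02 to -2.92 in clone 2 and -4.80 to -4.74 between the clones.

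The single-end libraries are separate samples. SLC7A3 had 82 counts (1.95 CPM) in the single-end RBM4 KO clone and 728 counts (16.8 CPM) in single-end wild type, a ratio in CPM of 0.116 with an exact 95% binomial interval of 0.0914 to 0.146 that covers counting error only. With 1 library of each genotype there is no test. The single-end wild type value lay close above the 3 paired-end wild type values, and the single-end knockout value lay close above the 2 values of clone 2. Because the clones moved in opposite directions, the mean of the clones described neither of them. It was -0.57 on the log2 scale against wild type (SE 0.075, adjusted p = 0.000194), and it turned to 1.12 without being called (adjusted p = 0.593) when all 5 knockout libraries were treated as 1 group, 3 of which are clone 1.

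Corrected for exon length, SLC7A3 contributed a different share of the summed SLC7A1, SLC7A2 and SLC7A3 messages in each line. Its level was 78.2 ± 4.43 TPM (counts scaled by exon length and then to library size) in clone 1, 2.91 ± 0.044 TPM in clone 2 and 22.1 ± 1.24 TPM in wild type (SD, n = 3, 2 and 3). SLC7A1 stood at 87.9 ± 6.09 TPM in clone 1, 91.7 ± 1.21 TPM in clone 2 and 91.8 ± 1.87 TPM in wild type. SLC7A2, another cationic carrier, stood at 26.0 TPM in clone 1, 28.2 TPM in clone 2 and 34.0 TPM in wild type. The summed level of the 3 genes was therefore 192.1 TPM in clone 1, 122.8 TPM in clone 2 and 147.8 TPM in wild type. SLC7A3 made up 40.7% of that sum in clone 1, 2.37% in clone 2 and 14.9% in wild type. Other carriers that can take cationic amino acids were not in the sum, so these are not shares of all such messages.

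SLC7A1 (ENSG00000139514, chromosome 13, 29509410 to 29595688, minus strand) had 181.4, 195.5 and 190.2 CPM in clone 1, 197.6 and 189.7 CPM in clone 2, compared with 196.0, 199.99 and 198.0 CPM in wild type. Clone 1 lay below every wild type library, by little, and clone 2 overlapped them. This was the narrowest member, with a range of 0.14 log2 units over the 8 libraries. Its log2 fold change was -0.07 in clone 1 (adjusted p = 0.391) and -0.03 in clone 2 (adjusted p = 0.784), both short of the threshold. The single-end libraries gave 181.5 CPM in the RBM4 KO clone and 212.2 CPM in wild type.

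**Figure D1:**
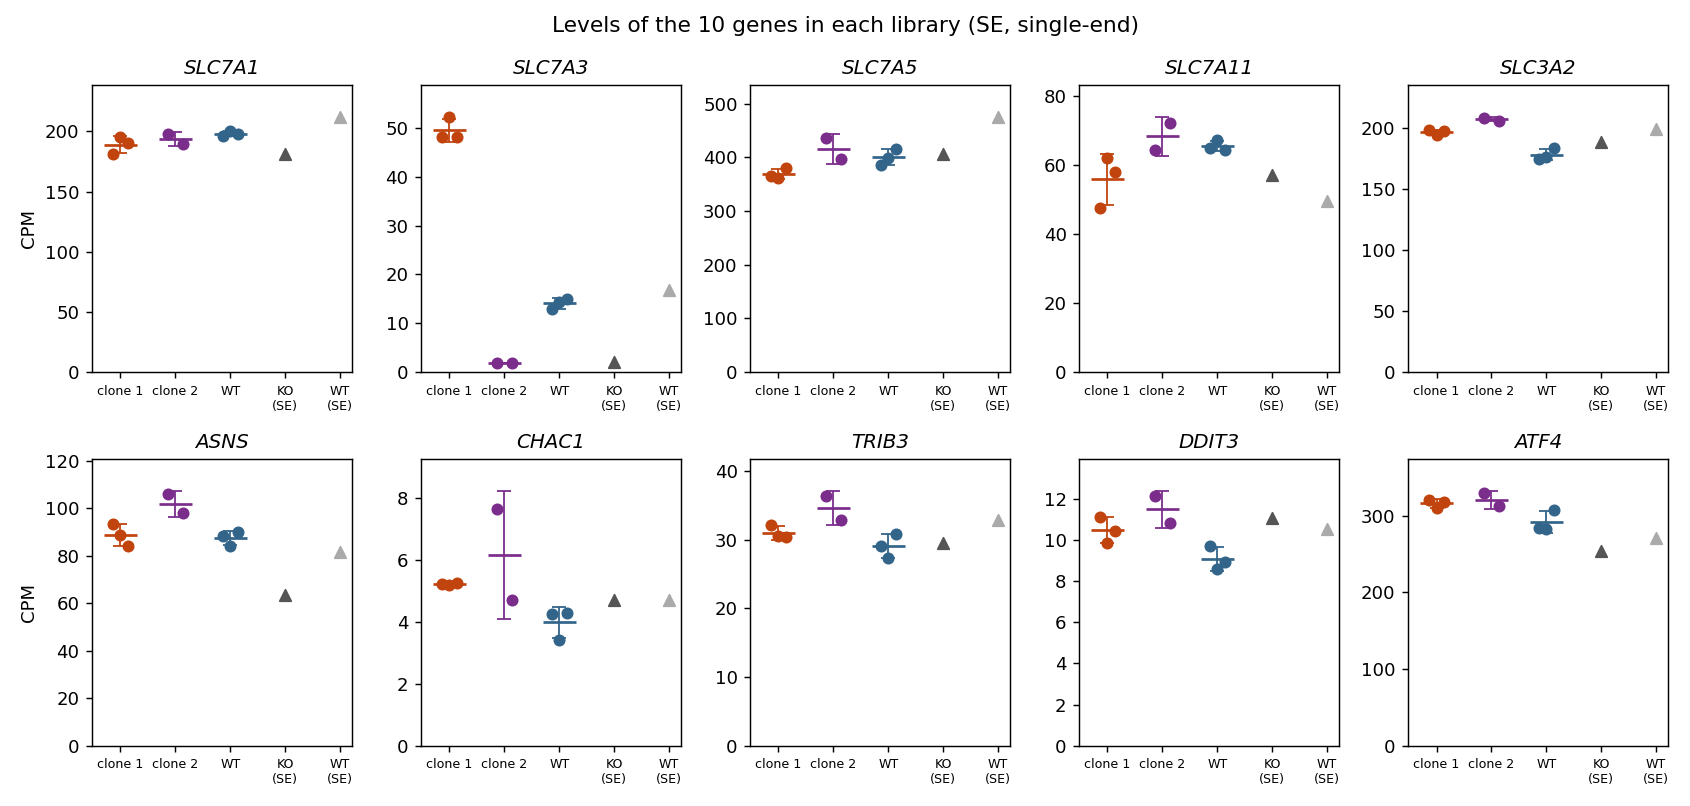
Level of each of the 10 genes in CPM (linear axis from 0) in every library. Circles are paired-end libraries of clone 1, clone 2 and wild type (WT) with the group mean (bar) and SD, and triangles are the single-end libraries; SLC7A3 separates clone 1 (48.2 to 52.3 CPM) from clone 2 (1.81 CPM) and wild type (12.9 to 14.9 CPM), while the other genes lie in overlapping or adjoining ranges.

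The genes around SLC7A3 on the X chromosome did not share its pattern. Within 1 Mb of it 22 other genes passed the filter on low counts, with log2 fold changes of -0.53 to 0.51 in clone 1 and -0.50 to 0.66 in clone 2. In clone 1, 3 of the 22 rose, namely DLG3 (0.25, adjusted p = 0.00415), FOXO4 (0.44, adjusted p = 0.0072) and MED12 (0.23, adjusted p = 0.0175). In clone 2, NHSL2 rose (0.66, adjusted p = 0.0071), at a distance of 979.7 kb. Of all features, 9.37% were called higher in clone 1 and 6.18% in clone 2, so a few calls among 22 genes do not set this region apart. Between clone 2 and clone 1, where SLC7A3 was at -4.78, the edgeR adjusted p of these 22 genes was 0.313 or higher. SNX12, a sorting nexin gene 125.2 kb away, gave 0.04 in clone 1 (adjusted p = 0.572) and 0.08 in clone 2 (adjusted p = 0.432).

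**Figure D2:**
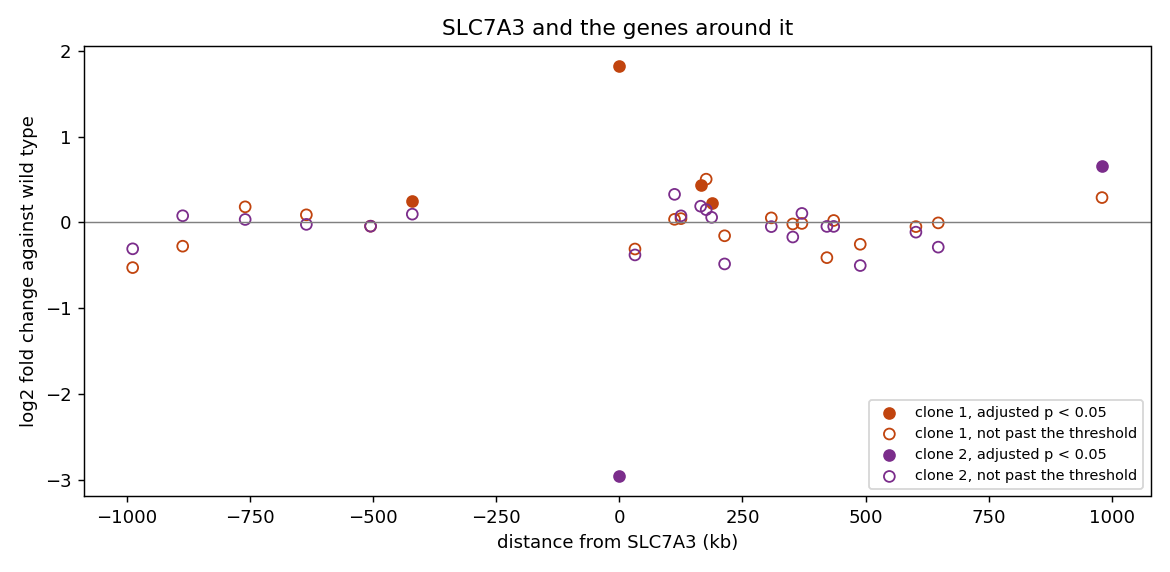
Log2 fold change against wild type of SLC7A3 (at 0) and of the 22 genes tested within 1 Mb, by distance in kb, in clone 1 (orange) and clone 2 (purple); filled points have an adjusted p below 0.05. SLC7A3 lies at 1.82 in clone 1 and -2.96 in clone 2, and its neighbours lie between -0.53 and 0.66.

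The features whose levels followed SLC7A3 most closely over the 8 paired-end libraries were sought among 14194 features whose log2 CPM averaged at least 1. They were TMEM178B (Pearson r = 0.994), MID2 (0.993), ENSG00000254979 (0.992), CELF2 (0.991) and DOC2B (0.990), a description over libraries that share 3 group means. TMEM178B had log2 fold changes of 0.93 in clone 1 and -1.20 in clone 2, MID2 of 0.93 and -1.80, and ENSG00000254979 of 1.34 and -1.44, in the same order of clones. CELF2, which encodes a splicing regulator, gave 0.34 in clone 1 and -0.68 in clone 2, and DOC2B gave 1.10 and -1.66. Few features were called in opposite directions in the clones, 37 of 20747 in either order. Of these, 5 were at least 2-fold higher in clone 1 and at least 2-fold lower in clone 2 (SLC7A3, SLC43A3, ALDH1L1, DOC2B and ENSG00000254979). Another 3 were the reverse of SLC7A3, at least 2-fold lower in clone 1 and at least 2-fold higher in clone 2. ENSG00000254979 and SLC43A3 share 1349 exon bases on the same strand, so their counts may not be separate.

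The heteromeric transporter genes moved little. SLC3A2, the shared heavy chain, rose by 0.18 on the log2 scale in the mean of the clones, while the light chain genes SLC7A5 and SLC7A11 did not pass the test in either clone. The rise of SLC3A2 ended in several alternative treatments, and with GC correction SLC7A5 was called lower in clone 1 and SLC7A11 higher in clone 2.

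SLC3A2 (ENSG00000168003, chromosome 11, 62856102 to 62888875, plus strand) had 198.5, 194.7 and 197.6 CPM in clone 1, 208.8 and 206.1 CPM in clone 2, compared with 174.9, 176.5 and 183.9 CPM in wild type. All 5 knockout libraries lay above all 3 wild type libraries, and both clone 2 libraries lay above all clone 1 libraries. The test gave log2 fold changes of 0.18 in the mean of the clones (SE 0.043, adjusted p = 0.0107) and 0.22 in clone 2 (SE 0.053, adjusted p = 0.0166), and 0.14 in clone 1 (adjusted p = 0.0568), which missed the threshold. The test of clone 2 against clone 1 gave 0.08 (adjusted p = 0.774). Correction for GC content took the mean of the clones to 0.08 (adjusted p = 0.114). The call was also lost without replicate 1 (adjusted p = 0.105) or 2 (0.104) of wild type and without replicate 1 (0.0609) or 2 (0.0508) of clone 2. In clone 2 the call was lost with GC correction and the replicate block (0.14, edgeR adjusted p = 0.0782) and without wild type replicate 1 (0.20, 0.111) or 2 (0.20, 0.118). Without replicate 1 or 2 of clone 2, which leaves 1 library of that clone, the value was 0.21 or 0.22 and was not called. The single-end libraries had 188.8 CPM in the RBM4 KO clone and 199.1 CPM in wild type.

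SLC7A5 (ENSG00000103257, chromosome 16, 87830023 to 87869488, minus strand) had the highest CPM of the transporter members, with 365.5, 360.8 and 380.3 CPM in clone 1, 435.2 and 396.3 CPM in clone 2, compared with 386.6, 399.2 and 415.7 CPM in wild type. Clone 1 lay below every wild type library and clone 2 overlapped them. The log2 fold change was -0.12 in clone 1 (adjusted p = 0.165) and 0.05 in clone 2 (adjusted p = 0.658). With GC correction clone 1 was called lower (-0.26, adjusted p = 0.000801; -0.27 to -0.26 and called with each of the 3 GC treatments), and clone 2 was at -0.05 (adjusted p = 0.577). SLC7A5P1 and SLC7A5P2, copies of the gene, were counted at means of 2.32 to 4.17 CPM, and a gene on the opposite strand shares 271 exon bases, so a small part of the counts is uncertain. Per length, the ratio of SLC3A2 to SLC7A5 was 0.489 in clone 1, 0.458 in clone 2 and 0.408 in wild type. In the single-end pair SLC7A5 stood at 406.9 CPM in the RBM4 KO clone and 475.4 CPM in wild type.

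SLC7A11 (ENSG00000151012, chromosome 4, 138164097 to 138242349, minus strand) had 47.5, 62.0 and 57.9 CPM in clone 1, 64.3 and 72.3 CPM in clone 2, compared with 65.0, 67.1 and 64.3 CPM in wild type. Clone 1 lay below wild type, while clone 2 overlapped wild type. On the log2 scale the change was -0.23 in clone 1 (adjusted p = 0.0962) and 0.06 in clone 2 (adjusted p = 0.759). Clone 1 was called lower with the replicate block (-0.24, adjusted p = 0.0273), without a filter (-0.22, 0.012) and without its replicate 2 (-0.31, 0.0295), and with the run of sample numbers in the column names as a term (-0.41, 0.000552) or with the first such run alone (-0.46, 0.000351). With GC correction clone 1 was at -0.04 (adjusted p = 0.706) and clone 2 was called higher (0.24, adjusted p = 0.0399). With 35.9% GC it is the member lowest in GC, and its mean of the clones was -0.08 (adjusted p = 0.511) without and 0.10 (adjusted p = 0.267) with GC correction, neither of them called. The gene shares 865 exon bases with SLC7A11-AS1 on the opposite strand. In the single-end pair SLC7A11 stood at 57.1 CPM in the RBM4 KO clone and 49.4 CPM in wild type, the reverse of the direction in clone 1.

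ATF4 and its targets ASNS, CHAC1, TRIB3 and DDIT3 were level or slightly higher in the paired-end knockout clones. In the single-end pair, with 1 library of each genotype, the ratio of KO to wild type was 0.937 for ATF4, 0.777 for ASNS and 0.898 for TRIB3. That ratio was 1.00 for CHAC1 and 1.05 for DDIT3. CHAC1 and DDIT3 rose in the mean of the clones, and ASNS, CHAC1 and TRIB3 rose in clone 2, each by 0.62 or less on the log2 scale. ATF4 itself missed the threshold in each comparison. None of the 9 members other than SLC7A3 differed between clone 2 and clone 1 by edgeR's quasi-likelihood test (adjusted p = 0.199 to 0.971), although 4 of them were higher in clone 2 at an unadjusted p below 0.05. DESeq2 called none of the 9 either. Members besides SLC7A3 were called between the clones with GC correction, without a filter and with the run of sample numbers as a term, as counted in the closing section.

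ATF4 (ENSG00000128272, chromosome 22, 39519695 to 39522685, plus strand) encodes the transcription factor at the centre of the pathway and is itself controlled mainly at translation. It had 320.0, 309.7 and 318.1 CPM in clone 1, 329.0 and 312.1 CPM in clone 2, compared with 284.1, 282.3 and 307.6 CPM in wild type. The knockout libraries lay above the wild type libraries, by little in the case of wild type replicate 3. Its change on the log2 scale was 0.12 in clone 1 (adjusted p = 0.154) and 0.14 in clone 2 (adjusted p = 0.17). The single-end libraries had 253.9 CPM in the RBM4 KO clone and 271.0 CPM in wild type.

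ASNS (ENSG00000070669, chromosome 7, 97852118 to 97872542, minus strand) encodes the enzyme that makes asparagine, and its promoter holds the motif shown above. It had 93.3, 89.0 and 84.0 CPM in clone 1, 105.9 and 98.1 CPM in clone 2, compared with 88.6, 84.1 and 89.9 CPM in wild type. Clone 2 lay above every other paired-end library, and clone 1 overlapped wild type. The log2 fold change was 0.22 in clone 2 (SE 0.064, adjusted p = 0.0407) and 0.02 in clone 1 (adjusted p = 0.85). The call in clone 2 held with GC correction, and was lost with DESeq2 (adjusted p = 0.0705), with its size factors (0.0558) and without any 1 of 6 libraries (adjusted p = 0.0507 to 0.38), namely the 3 wild type replicates, both clone 2 replicates and clone 1 replicate 2. The single-end libraries went the other way, with 63.4 CPM in the RBM4 KO clone and 81.6 CPM in wild type (ratio 0.777, 95% interval 0.738 to 0.817).

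CHAC1 (ENSG00000128965, chromosome 15, 40952962 to 40956519, plus strand), whose product degrades glutathione, had 119 to 308 counts in each paired-end library, fewer than any other member except SLC7A3 in clone 2. It had 5.23, 5.20 and 5.26 CPM in clone 1, 7.62 and 4.70 CPM in clone 2, compared with 4.25, 3.40 and 4.29 CPM in wild type. Every knockout library lay above every wild type library, and clone 2 replicate 1 stood well above clone 2 replicate 2. Log2 fold changes were 0.50 in the mean of the clones (SE 0.15, adjusted p = 0.0347), 0.62 in clone 2 (SE 0.18, adjusted p = 0.045) and 0.39 in clone 1 (adjusted p = 0.133). The call in clone 2 was lost with GC correction (0.50, adjusted p = 0.0795), without any 1 wild type replicate (0.0812 to 0.15) and without replicate 2 (0.0654) or 3 (0.0575) of clone 1. Without clone 2 replicate 1 the mean of the clones was 0.31 (adjusted p = 0.141) and clone 2 was 0.23 (adjusted p = 0.593). The call in the mean of the clones was also lost with GC correction (0.37, adjusted p = 0.0927) and without wild type replicate 1 (adjusted p = 0.087), 2 (0.157) or 3 (0.0704), and without replicate 2 (0.0568) or 3 (0.058) of clone 1. The single-end libraries had 4.72 CPM in the RBM4 KO clone and 4.71 CPM in wild type.

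TRIB3 (ENSG00000101255, chromosome 20, 362835 to 397559, plus strand) encodes a pseudokinase that binds ATF4 and holds back its activity. It had 32.1, 30.5 and 30.4 CPM in clone 1, 36.4 and 32.8 CPM in clone 2, compared with 29.04, 27.3 and 30.8 CPM in wild type. Clone 2 lay above wild type and clone 1 overlapped it. The change in log2 was 0.25 in clone 2 (SE 0.073, adjusted p = 0.0431) and 0.09 in clone 1 (adjusted p = 0.377). With GC correction the value in clone 2 was 0.15 (adjusted p = 0.188), with DESeq2 it was 0.24 (adjusted p = 0.0847), and the call was lost without any 1 of the 6 libraries listed for ASNS (adjusted p = 0.053 to 0.394). The single-end libraries had 29.6 CPM in the RBM4 KO clone and 32.9 CPM in wild type.

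DDIT3 (ENSG00000175197, chromosome 12, 57516588 to 57521737, minus strand) encodes CHOP, a transcription factor of prolonged stress that promotes cell death. It had 11.1, 9.85 and 10.4 CPM in clone 1, 12.1 and 10.8 CPM in clone 2, compared with 9.69, 8.59 and 8.95 CPM in wild type. The lowest knockout library lay just above the highest wild type library. The log2 fold change was 0.27 in the mean of the clones (SE 0.084, adjusted p = 0.0402), 0.34 in clone 2 (adjusted p = 0.0507) and 0.20 in clone 1 (adjusted p = 0.161). The call was lost with DESeq2 (adjusted p = 0.0693), with GC correction (0.23, adjusted p = 0.0752) and without any 1 of 6 libraries (adjusted p = 0.0512 to 0.189), namely the 3 wild type replicates, clone 1 replicates 1 and 3 and clone 2 replicate 1. DDIT3 shares 355 exon bases with MARS1 on the opposite strand, which was counted at 215.5 CPM in clone 1, 223.1 CPM in clone 2 and 210.2 CPM in wild type. The sources used here do not give whether the counting used strand, so reads of these genes may be mixed. In the single-end pair DDIT3 stood at 11.05 CPM in the RBM4 KO clone and 10.55 CPM in wild type.

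**Figure D3:**
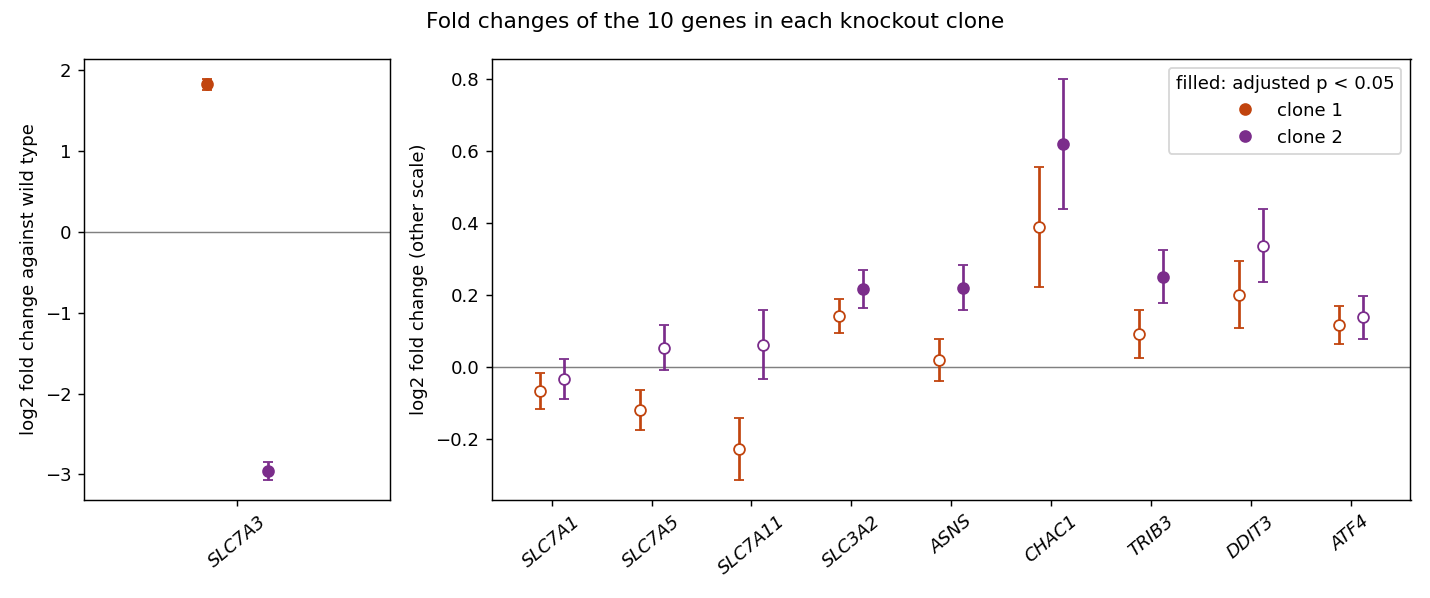
Log2 fold change against wild type of each gene in clone 1 (orange) and clone 2 (purple) with its approximate standard error; filled points have an adjusted p below 0.05, and SLC7A3 has an axis of its own. SLC7A3 is at 1.82 in clone 1 and -2.96 in clone 2, and the other 9 genes lie between -0.23 and 0.62.

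Counted over the list, the mean of the clones called 3 of 10 members higher (SLC3A2, CHAC1 and DDIT3) and SLC7A3 lower, where 18.0% of all 20747 features were called (9.87% higher, 8.09% lower). DESeq2 called 2 higher and 1 lower, and at an unadjusted p below 0.05 edgeR gave 6 higher and 1 lower. In clone 2, 4 members were called higher (SLC3A2, ASNS, CHAC1 and TRIB3) and SLC7A3 lower, where 10.8% of features were called (6.18% higher, 4.59% lower). The median log2 fold change of the members was 0.12 in the mean of the clones, and that of all features was 0.00. The 5 knockout libraries lay wholly above the 3 wild type libraries for 4 members (SLC3A2, CHAC1, DDIT3 and ATF4) and below them for 0, where 13.5% of all features lay above and 11.8% below. These shares are small counts out of 10 and describe the members only.

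The GC content of a gene moved with the comparison. Across genes, the Spearman correlation of a library's deviation from the mean level with GC content was 0.28, -0.01 and 0.40 in clone 1, 0.35 and -0.05 in clone 2, and -0.43, -0.36 and -0.25 in wild type, as a description. The median log2 fold change in the mean of the clones was -0.16 for genes under 40% GC, where SLC7A11 lies, and -0.09 from 40% to 45%, where ASNS lies. It was 0.05 from 50% to 55% (SLC7A1, SLC7A3 and DDIT3), 0.12 from 55% to 60% (SLC3A2 and ATF4) and 0.13 at 60% or more (SLC7A5, CHAC1 and TRIB3). With GC correction 1 member was called higher and 3 lower in the mean of the clones, where 15.0% of all features were called (7.78% higher, 7.20% lower). ASNS was the one higher (0.16, adjusted p = 0.0309), and SLC7A3 (-0.63, adjusted p = 4.95e-05), SLC7A5 (-0.16, adjusted p = 0.00957) and SLC7A1 (-0.12, adjusted p = 0.0451) were lower. ATF4 was at 0.03 (adjusted p = 0.602) and TRIB3 at 0.05 (adjusted p = 0.616). In the mean of the clones SLC7A3 was the 1 member called both without and with the correction. In clone 2 the calls of SLC3A2 and ASNS were also kept with GC correction alone. Gene GC content is shared by all libraries, and what made libraries differ along it was not tested.

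**Figure D4:**
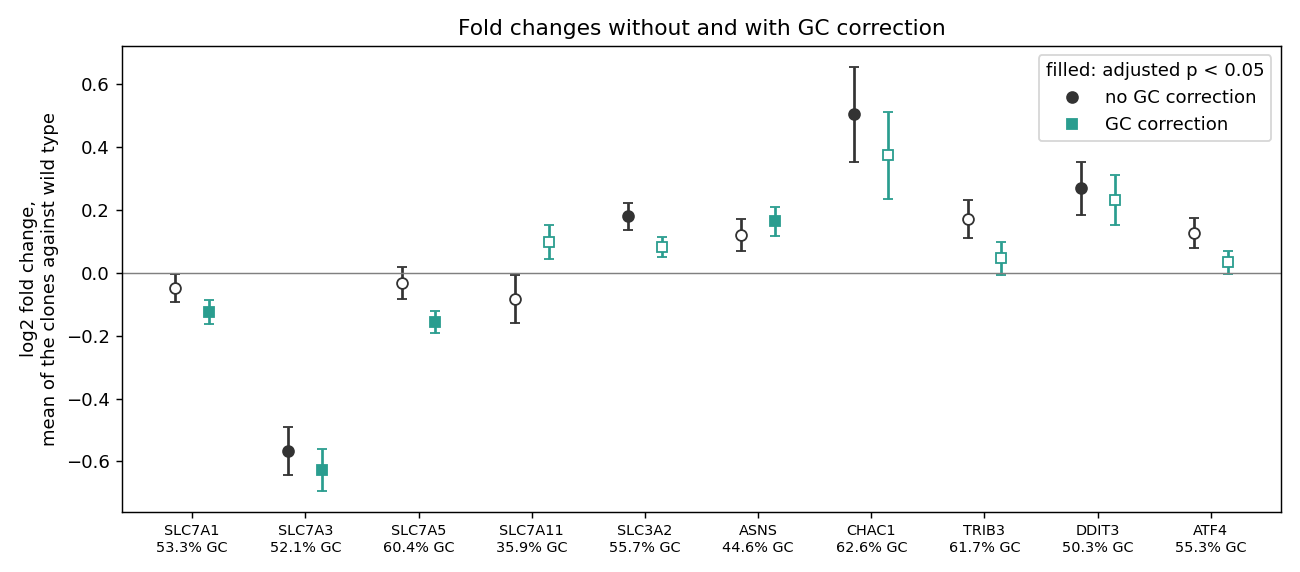
Log2 fold change in the mean of both clones against wild type of each gene without (circles) and with (squares) correction for GC content, with its approximate standard error and the gene's GC content under its name; filled symbols have an adjusted p below 0.05. SLC7A3 stays at -0.57 and -0.63, SLC3A2, CHAC1 and DDIT3 lose the call, and SLC7A1, SLC7A5 and ASNS gain it.

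The numbers in the column names put the libraries in separate runs, S1 to S5 with all wild type libraries and replicate 1 of each clone, and S11 to S13 with the other 3 knockout libraries; the labels do not say what they stand for. The second run holds no wild type library and gives no value against wild type; between the clones it holds 1.81 CPM of SLC7A3 in clone 2 and 52.3 and 48.2 CPM in clone 1. In the first run alone 6 members were called higher (SLC3A2, ASNS, CHAC1, TRIB3, DDIT3 and ATF4) and 2 lower (SLC7A3 and SLC7A11) in the mean of the clones, on 1 library of each clone, where 23.1% of all features were called (10.8% higher, 12.3% lower). With the run as a term 5 were called higher and 2 lower, where 19.7% of all features were called (9.62% higher, 10.1% lower). SLC7A3 gave 1.78 in clone 1 and -2.96 in clone 2 in the first run alone, close to the values over all libraries.

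Levels per length placed the members in a similar order in each line. In wild type ATF4 was the highest at 412.9 ± 12.1 TPM, followed by SLC7A5 at 300.8 ± 4.69, SLC3A2 at 122.8 ± 0.776, SLC7A1 at 91.8 ± 1.87, ASNS at 70.05 ± 2.29 and TRIB3 at 30.1 ± 1.47 TPM (SD, n = 3). DDIT3 at 24.8 ± 1.86, SLC7A11 at 24.2 ± 0.898 and SLC7A3 at 22.1 ± 1.24 TPM followed, and in this order DDIT3 and SLC7A11, and SLC7A11 and SLC7A3, did not differ beyond the sum of their SDs. CHAC1 was the lowest at 6.89 ± 0.855 TPM. SLC7A3 was the gene that changed place, since its 78.2 TPM in clone 1 put it above ASNS at 71.1 TPM, and its 2.91 TPM in clone 2 put it below CHAC1 at 10.9 TPM.

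Other amino acid transporters went both ways. Of 32 listed, 23 were tested, 9 rose and 6 fell in the mean of the clones (18.0% of all features were called), with a median log2 fold change of -0.03. SLC38A3, a glutamine carrier, stood at 8.56 ± 0.104 CPM in clone 1, 8.36 ± 0.675 CPM in clone 2 and 4.599 ± 0.564 CPM in wild type, and rose by 0.88 on the log2 scale (SE 0.10, adjusted p = 5.75e-05). SLC7A8, a light chain that pairs with SLC3A2 to carry neutral amino acids, rose by 0.78 (SE 0.12, adjusted p = 0.000659), and SLC7A10, another SLC3A2 partner named after its values were seen, rose by 1.10 (SE 0.21, adjusted p = 0.00283). Both are minor light chains here, with 2.90 TPM of SLC7A8 in clone 1, 2.91 TPM in clone 2 and 1.66 TPM in wild type, and 1.43, 1.88 and 0.744 TPM of SLC7A10 in the same order. SLC43A2, a carrier of large neutral amino acids, rose by 0.42 (adjusted p = 0.000517), and SLC38A7, a lysosomal glutamine carrier, rose by 0.39 (adjusted p = 0.00153).

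Glutamate carriers and SLC7A2 were among the 6 that fell. SLC1A3, a glutamate carrier best known from astrocytes, stood at 8.85, 8.75 and 8.44 CPM in clone 1, 12.7 and 12.2 CPM in clone 2, compared with 21.5, 19.1 and 19.8 CPM in wild type. It fell by 0.96 on the log2 scale in the mean of the clones (SE 0.069, adjusted p = 6.94e-07), by 1.21 in clone 1 and by 0.70 in clone 2. SLC1A1, a carrier of glutamate and cysteine, fell by 0.74 (SE 0.13, adjusted p = 0.00127). SLC7A2, the relative of SLC7A1 and SLC7A3, fell by 0.34 (SE 0.047, adjusted p = 0.000237), and SLC38A1, a glutamine carrier, fell by 0.23 (adjusted p = 0.0103). The calls of SLC38A3, SLC7A8, SLC43A2, SLC38A7, SLC1A3, SLC1A1 and SLC7A2 held in all 19 alternatives. In the single-end libraries these 7 genes had the same sign, from 0.09 for SLC43A2 to 0.72 for SLC38A3 among those that rose, and -0.20 for SLC7A2, -0.45 for SLC1A1 and -0.79 for SLC1A3.

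Of 44 enzyme and translation genes of the pathway 7 were called, which is 15.9% beside 18.0% of all features. Of 14 synthesis enzymes 2 rose, SHMT2 of mitochondrial one-carbon metabolism (0.22, adjusted p = 0.00732) and CTH of cysteine synthesis (0.21, adjusted p = 0.0233), and 0 fell; DESeq2 gave the same counts, and at an unadjusted p below 0.05 edgeR gave 4 higher and 1 lower. SHMT2 lost its call with GC correction (0.11, adjusted p = 0.0618) and without wild type replicate 1 or 2 (0.0681 and 0.0844), and CTH lost it without any 1 wild type replicate or clone 2 replicate 1 (adjusted p = 0.0668 to 0.153). Of 14 genes of tRNA charging and export, CARS1 rose (0.15, adjusted p = 0.0456) and LARS1 fell (-0.13, adjusted p = 0.0478), calls lost in 17 of 19 alternatives for CARS1 and 11 of 19 for LARS1. Of 16 genes of the eIF2 pathway, PPP1R15A, a subunit of the phosphatase that removes the eIF2 phosphate, rose by 0.57 (SE 0.10, adjusted p = 0.0023). EIF2S3, a subunit of eIF2, gave -0.20 (adjusted p = 0.0091) and IMPACT, an inhibitor of the eIF2 kinase of amino acid shortage, gave -0.24 (adjusted p = 0.00925). IMPACT lost its call with each GC treatment (-0.12, adjusted p = 0.104 to 0.159), and EIF2S3 lost it with GC correction and the block (-0.12, 0.0709) and without wild type replicate 2 (0.0693). The medians were 0.04, 0.04 and -0.08 in these 3 lists.

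Of 13 other partners and stress targets of ATF4, 12 were tested, 6 rose and 0 fell (9.87% and 8.09% of all features), with a median of 0.28 (0.17 with GC correction, and again 6 and 0). DESeq2 called 5 higher and 0 lower, and at an unadjusted p below 0.05 edgeR gave 6 and 0. VLDLR, a lipoprotein receptor, stood at 21.4 ± 1.53 CPM in clone 1, 23.7 ± 0.362 CPM in clone 2 and 15.6 ± 1.03 CPM in wild type, and rose by 0.53 (SE 0.070, adjusted p = 0.00019). JDP2 rose by 0.33 (adjusted p = 0.0109) and ATF3 rose by 0.33 (adjusted p = 0.0163), both transcription factors of the same class as ATF4. JDP2 lost the call without wild type replicate 1 (adjusted p = 0.0849) or 3 (0.0599) and with GC correction and the block (0.23, 0.0745), and was at -0.17 in the single-end pair. ATF3 lost it without wild type replicate 2 (0.24, adjusted p = 0.12) or 3 (0.0606), and was at 0.25 in the single-end pair. GDF15, a secreted stress factor, was called higher (adjusted p = 0.0201), but lay at 0.181, 0.180 and 0.296 CPM in clone 1, 0.371 and 0.212 CPM in clone 2, compared with 0.024, 0.114 and 0.024 CPM in wild type, too few counts for a useful fold.

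Of 15 NRF2 and glutathione genes 5 rose and 2 fell (9.87% and 8.09% of all features), with a median of 0.05. With GC correction 2 were called, both higher, where 15.0% of all features were called. HMOX1, which degrades haem, rose by 0.61 (SE 0.094, adjusted p = 0.000607), and the quinone reductase NQO1 rose by 0.36 (SE 0.069, adjusted p = 0.00294), both in all 19 alternatives. GSS, which makes glutathione, rose by 0.21 (adjusted p = 0.00793). BACH1, a repressor of HMOX1, gave -0.21 (adjusted p = 0.024), and NFE2L2, which encodes NRF2, gave -0.20 (adjusted p = 0.0392). In the single-end pair HMOX1 was at -0.04 and NQO1 at -0.24, so their rise was not seen there. GSS, BACH1 and NFE2L2 lost the call with GC correction. Without wild type replicate 2 all 3 lost it as well (edgeR adjusted p = 0.0978, 0.094 and 0.089). BACH1 also lost it without wild type replicate 1 (0.0917), and NFE2L2 without wild type replicate 1 (0.0965) or 3 (0.151) and with 1 knockout group (0.0888). Without clone 2 replicate 1, which leaves 1 library of that clone, BACH1 was at -0.19 and NFE2L2 at -0.17, and neither was called.

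**Figure D5:**
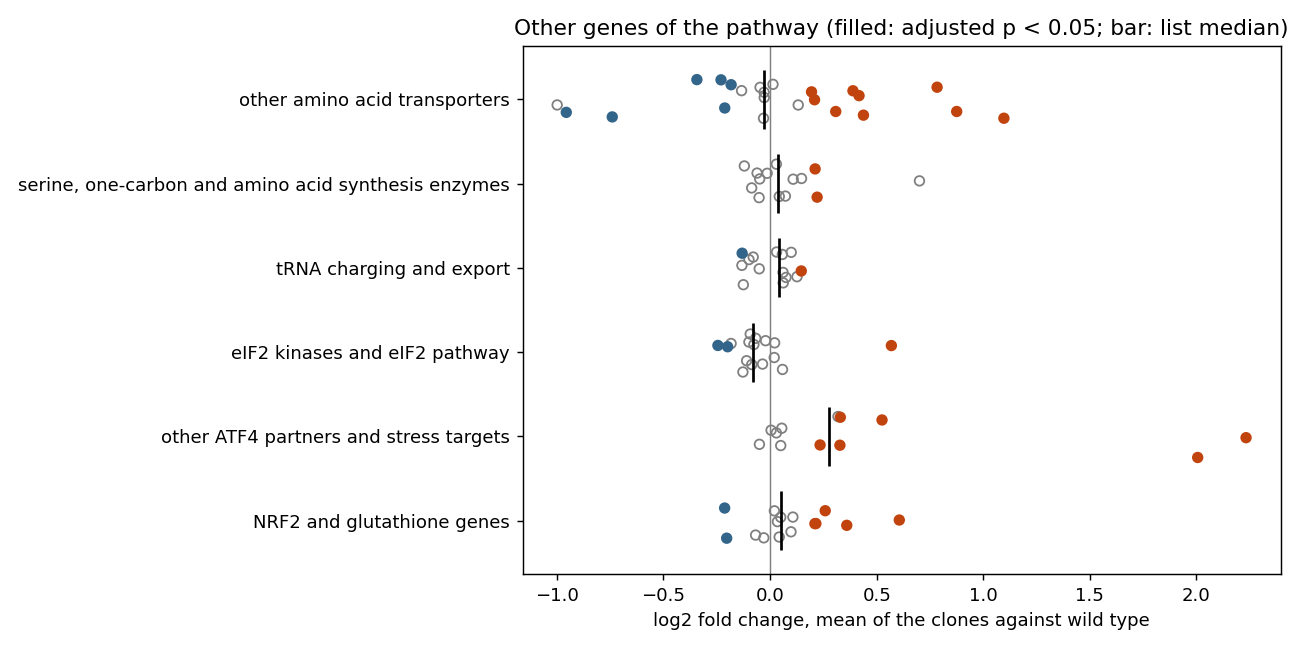
Log2 fold change in the mean of both clones against wild type of every tested gene of the 6 lists of other pathway genes; filled points have an adjusted p below 0.05 (orange higher, blue lower) and bars are list medians. The transporters spread to both sides (9 higher, 6 lower), and of the ATF4 partners and stress targets 6 are higher and 0 lower, the points beyond 2.0 being GDF15 and NUPR1 at under 0.5 CPM.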

How the data were processed

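The 2 count tables hold whole-number counts per gene and repeat subfamily, deposited by the authors; STAR 2.5.2a and GRCh38 are named in the submitters' processing notes. The sources used here do not give the counter, the annotation release or the use of strand. Libraries were stranded poly(A) libraries from 65 ng of total RNA, per the labels' protocols. Depth was 33192095 to 55617525 counts, and its error enters through the test.

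The 8 paired-end libraries were fitted together in edgeR 4.0.16 (R 4.3.3; filterByExpr, TMM, robust quasi-likelihood F test, 1 mean per group), and p-values were adjusted by Benjamini-Hochberg over 20747 features (19683 genes, 1064 repeats), called below 0.05. A test on simulated counts preceded this. An SE is the log2 fold change divided by the root of F, an approximation. Single-end log2 values use a prior count of 2. TPM uses GENCODE 29 exon lengths. The labels do not say whether replicates are separate cultures; p-values then measure only the spread between these libraries, which may be technical.

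Members and lists were chosen with earlier results of these data known. Named genes are all members, RBM4, up to 4 called genes per direction and list with the smallest p, and the 5 features most like the called member with the largest change. 1 gene that this rule names is not reported here. Genes outside this rule are the neighbours of SLC7A3, SLC7A10, SLC43A3, ALDH1L1, NUPR1, MARS1 and the SLC7A5 copies. Alternatives were DESeq2 1.42.0 or its size factors, TMM from genes alone, no filter, the replicate block, GC correction (lowess span 0.3) alone, with the block or with length (added after seeing the data), 1 knockout group, the sample-number run, and leaving out each library. Same-numbered libraries of different groups were not treated as paired.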

Additional observations from a re-analysis of the deposited data

Results flagged for a closer look

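Clone 2 differed from clone 1, by edgeR's quasi-likelihood test of the difference with adjustment over all features, for 1 member and for 2 of the 94 tested genes of the other lists, which is 2.13% beside 2.09% of all features. For SLC7A3 the log2 fold change of clone 2 against clone 1 was -4.78 (adjusted p = 1.14e-11), with every clone 2 library under every clone 1 library. For SLC43A3, a carrier of nucleobases in a family of amino acid carriers, it was -2.69 (adjusted p = 4.2e-10). SLC43A3 stood at 49.5, 46.1 and 42.0 CPM in clone 1, 7.40 and 6.80 CPM in clone 2, compared with 18.4, 18.0 and 18.7 CPM in wild type. It went opposite ways in the clones, as SLC7A3 did, with 1.32 in clone 1 and -1.37 in clone 2 against wild type, and gave -1.55 in the single-end pair. For SLC1A3, lower in both clones, the difference was 0.52 (adjusted p = 0.00522), since it fell by less in clone 2; this call was lost in the first sample-number run alone and without clone 2 replicate 1 (adjusted p up to 0.118). SLC43A3 was named after its values were seen.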

How the results depend on the processing

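The number of members called rested on single libraries. In the mean of the clones 4 were called, against 1 with all knockout libraries as 1 group, 7 with the sample-number run as a term, 8 in the first run alone and 1 to 3 on leaving out 1 library, the value 1 being reached without wild type replicate 1, wild type replicate 2 or clone 2 replicate 1. In clone 1, 1 was called, against 2 with TMM from genes alone, the replicate block or the first run alone, 3 without a filter, with any GC correction or with the run as a term, and 1 to 2 on leaving out a library. In clone 2, 5 were called, against 3 with DESeq2, its size factors or GC correction with the replicate block, and 1 to 6 on leaving out a library. Between clone 2 and clone 1, 1 was called, against 2 without a filter or with either run treatment, 3 with GC correction alone or with the block, and 4 with GC and length correction. In the other lists 35 were called, against 22 with GC correction and the block and 18 to 35 on leaving out a library (18, 19 and 22 without wild type replicates 1, 2 and 3, and 22 without clone 2 replicate 1).

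Same-numbered libraries of different groups were compared by the deviation of log2 CPM from their group's mean. These deviations correlated at -0.23 to 0.25 over 7 pairs. Both pairs between the clones were positive (0.25 and 0.20) and in 1 sample-number run each, so the numbers were not taken as pairs across all groups. The deviations of the 2 clone 2 libraries mirror each other, so pairs with them are not separate checks. With the replicate block 5 members were called in the mean of the clones (TRIB3 was added, edgeR adjusted p = 0.0406), where 4248 of 20747 features were called. The block called 2 members in clone 1, 6 in clone 2 and 1 between the clones, and 34 genes in the other lists.

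Directions turned for SLC7A3 in the mean of the clones (1.12 with 1 knockout group), SLC7A5 in clone 2 (-0.049, -0.048 and -0.049 with GC correction alone, with the block and with length, and -0.016 to 0.11 on leaving out a library), SLC7A11 in the mean of the clones (0.10 with each GC correction) and in clone 2 (-0.073 with the run term, -0.035 in the first run alone and -0.037 to 0.14 on leaving out a library), ASNS in clone 1 (-0.028 to 0.055 on leaving out a library), TRIB3 in clone 1 (-0.054, -0.054 and -0.063 with GC correction alone, with the block and with length) and ATF4 in clone 1 (-0.013 with GC and length correction). Apart from SLC7A3 none of these had been called. The causes were not tested. Of 1114 pairs of a gene's result and an alternative, 917 kept their direction and side of the threshold.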
